A study of Mus musculus with 24 samples.

Results

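The genes described here encode the proteins of the cytosolic ribosome. They were taken from the array by symbol: Rpl or Rps followed by a number and at most a suffix a, x, y or l, the stalk genes Rplp0, Rplp1 and Rplp2, and Rpsa, with the Rps6k kinases left out. Each gene was read from 1 probe, the one with the highest mean heart signal, and entered the tests where its heart signal stood well above background throughout at least 1 group of 3 arrays. All 80 genes that met the symbol rule were kept, 48 of the large and 32 of the small subunit, of 11452 features tested in all. Of the 80, 75 were well above background on all 24 arrays and the other 5 on 21 to 23, so none passed through a single group. Genes that the array lists under older names, such as Arbp for the stalk protein P0, fall outside the rule and are given separately.

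The hearts came from mice aged 12 to 16 weeks of matched strain, labelled MuRF1 Tg+ or wild type (MuRF1+/+). MuRF1 is the E3 ubiquitin ligase encoded by Trim63, and acts on sarcomere proteins of striated muscle. Mice of each genotype had either ischemia-reperfusion (I/R), a coronary ligation of the left anterior descending artery followed by release, or a sham operation. Tissue above and tissue below the ligation site, or the place where it would have been, went onto separate arrays with 2 dyes. The groups, of 3 arrays each, were therefore MuRF1 Tg+ after I/R above and below, MuRF1 Tg+ after sham surgery above and below, wild type after I/R above and below, and wild type after sham surgery above and below. The labels describe 3 biological replicates per genotype and surgery, with both pieces taken from the same heart. All arrays shared a Cy3-labelled reference, RNA pooled from whole C57BL/6 pups on day 1, against which the Cy5-labelled heart RNA was read as a log2 ratio. One protocol text names Cy3 for heart RNA, against the label fields, which are followed here. The sources used here do not give the promoter behind the transgene, the number of lines or the time after release.

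Trim63 itself had log2 ratios of 2.47, 2.29 and 2.33 in Tg+ sham pieces above, against 2.25, 2.48 and 2.28 in wild-type sham pieces above. Below, it had 2.40, 2.22 and 2.23 in Tg+ sham pieces, against 2.24, 2.26 and 2.55 in wild-type sham pieces. The groups overlapped, and the limma fit gave Tg+ over wild type differences of 0.025 (sham above, adjusted p = 1), -0.065 (sham below, adjusted p = 1), 0.094 (I/R above, adjusted p = 0.937) and -0.90 (I/R below, adjusted p = 0.164). This Trim63 probe therefore did not separate the genotypes, and the sources used here do not say whether it lies in the transgene's transcript. Genotypes go by their labels throughout. The hearts carried the labelled tissue's markers: all 8 ventricular cardiomyocyte genes of a marker list were above background and tested.

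The heart channel was weak on some I/R arrays, which touches every I/R value below. The share of Cy5 spots well above background was 9.90% to 24.2% on 5 I/R arrays and 28.3% to 38.3% on the 7 other I/R arrays, against 34.6% to 43.3% on the 12 sham arrays. Those 5 arrays, under 25%, were Tg+ I/R below replicates 2 and 3, wild-type I/R above replicates 1 and 2 and wild-type I/R below replicate 1. For the counts, the medians and the main ribosomal protein genes, I/R values that rest on them are also given without them. Where that leaves 1 I/R array in a group, only the size of a change is given, except for some counts under other ways of processing, given at the end.

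A ribosome joins a small subunit, which reads the mRNA, to a large subunit, which forms the peptide bonds, and its proteins are needed in matched amounts. Their genes are among the most strongly transcribed of the cell, and their mRNAs typically begin with a C followed by a run of pyrimidines. Through this 5′ terminal oligopyrimidine (TOP) run, mTOR signalling and LARP1 control how much of each mRNA is translated, and the heart also holds a muscle form of one large-subunit protein, RPL3L, beside the general form RPL3.

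Start-site sequences are shown first because the genes moved together and the TOP run is the sequence feature they are known for. RefSeq (GRCm38.p6) start sequences were matched for 60 of the 80 genes. A C followed by at least 4 bases that were each C or T, on the gene's own strand, began exactly at the annotated start in 13 of the 60 genes (21.7%), against 813 of all 27025 genes with a sequence (3.01%). Within 5 bases of the start it was found in 28 of the 60 (46.7%), against 21.2% of all genes, and within 10 bases in 36 (60%), against 34.4%. In the following windows of 10 bases before and 20 bases from the start, capitals mark that run where it began within 5 bases of the start, and other runs in the window stay in lower case. The first 2 genes are those that passed the test in all 4 I/R comparisons. The next 5 are among the members with large or well-measured I/R values or a known role in signalling, and each window shown for these holds a run. Members with such values but no run within 5 bases include Rps12, Rpl37a, Rpsa and Rpl10a, whose windows are not shown.
Rps15a, chr7:118116128-118116157, minus strand: tttctgccatCTTCCCTCgccggtgagtga
Rpl22l1, chr3:28805498-28805527, plus strand: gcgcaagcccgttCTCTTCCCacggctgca
Rps6, chr4:86857348-86857377, minus strand: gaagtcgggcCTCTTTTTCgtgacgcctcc
Rps27, chr3:90213629-90213658, minus strand: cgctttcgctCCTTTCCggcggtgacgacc
Rps18, chr17:33955646-33955675, minus strand: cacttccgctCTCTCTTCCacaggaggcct
Rpl38, chr11:114668570-114668599, plus strand: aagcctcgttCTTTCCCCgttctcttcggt
Rplp2, chr7:141447641-141447670, plus strand: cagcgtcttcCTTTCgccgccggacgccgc
The next 3 belong to the paralogs that moved least or the other way, and of them Rpl3l holds such a run only farther from the start, within 10 bases of it, and Rpl7l1 holds none in this window.
Rpl3l, chr17:24727816-24727845, plus strand: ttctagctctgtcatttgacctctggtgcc
Rps27l, chr9:66946076-66946105, plus strand: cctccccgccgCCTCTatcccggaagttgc
Rpl7l1, chr17:46782637-46782666, minus strand: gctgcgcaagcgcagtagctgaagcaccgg
Rpl3l and Rps27l each have a further annotated start, which is not shown. The 28 members with a run within 5 bases had median I/R over sham changes of 0.66 (Tg+ above), 0.97 (Tg+ below), 0.64 (wild type above) and 0.42 (wild type below) on the log2 scale. The 32 members without one had 0.54, 1.06, 0.84 and 0.61 in the same order, higher than the members with a run in all but Tg+ above.

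After I/R the median of the 80 log2 ratios, loess-normalized, was -0.89, -0.59 and -0.48 in Tg+ pieces above and -0.60, 0.47 and 0.10 in Tg+ pieces below. In Tg+ sham pieces it was -1.26, -1.37 and -1.28 above and -1.19, -1.25 and -1.17 below. In wild-type pieces it was -0.35, 0.096 and -0.75 above and 0.33, -0.98 and -0.89 below after I/R, against -1.18, -1.16 and -1.07 above and -0.98, -1.16 and -1.29 below after sham surgery. On all 12 I/R arrays it lay above the mean of its own sham group, but wild-type below replicate 2 lay no higher than the highest sham array, and the direction turns under median centring, as given with the tests. The ratio is to a whole pup in a single dye orientation, so its size carries any dye bias of the probes and only its differences between arrays are compared.

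The 5 arrays of weak Cy5 signal had medians of -0.35 to 0.47 and the 7 other I/R arrays -0.98 to -0.48, against -1.37 to -0.98 on the 12 sham arrays. Higher medians thus stood beside a lower share of heart spots above background, and the part of that share in the result was not tested.

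**Figure D1:**
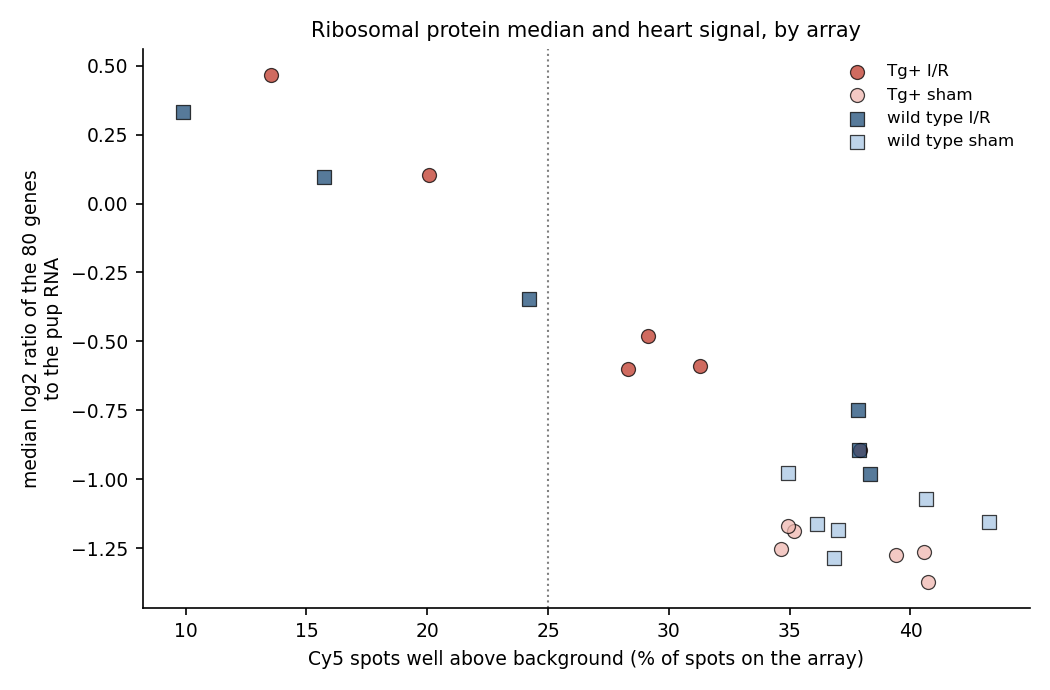
Median log2 ratio of the 80 ribosomal protein genes to the pup RNA (loess scale) against the percent of Cy5 spots well above background, 1 point per array, with a dotted line at 25%. The 5 I/R arrays left of the line have medians of -0.35 to 0.47 and the 12 sham arrays -1.37 to -0.98; under median centring in place of loess the I/R over sham medians turn negative (-0.33, -1.24, -0.88 and -0.78 for Tg+ above, Tg+ below, wild type above and wild type below).

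Set against the 3 sham arrays of its own genotype and piece, each I/R array had most of the measured genes above all of them, on the loess scale. In Tg+ pieces above, 71 of 80, 67 of 77 and 71 of 79 genes were above, and in Tg+ pieces below 73, 77 and 75 of 80. In wild-type pieces above it was 69 of 80, 71 of 78 and 63 of 78, and in wild-type pieces below 75 of 80, 41 of 78 and 53 of 79. Over all features the share above all 3 sham arrays was 26% to 43% on these 12 arrays. The lowest counts, 41 and 53, came from wild-type I/R below replicates 2 and 3, on which 26% and 29.7% of all features were above. Those are 2 of the I/R arrays whose Cy5 share (38.3% and 37.9%) was within the sham range, and their medians minus sham were 0.13 and 0.21. The other 2 such arrays, Tg+ I/R above replicate 1 and wild-type I/R above replicate 3, had 0.37 and 0.41.

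**Figure D2:**
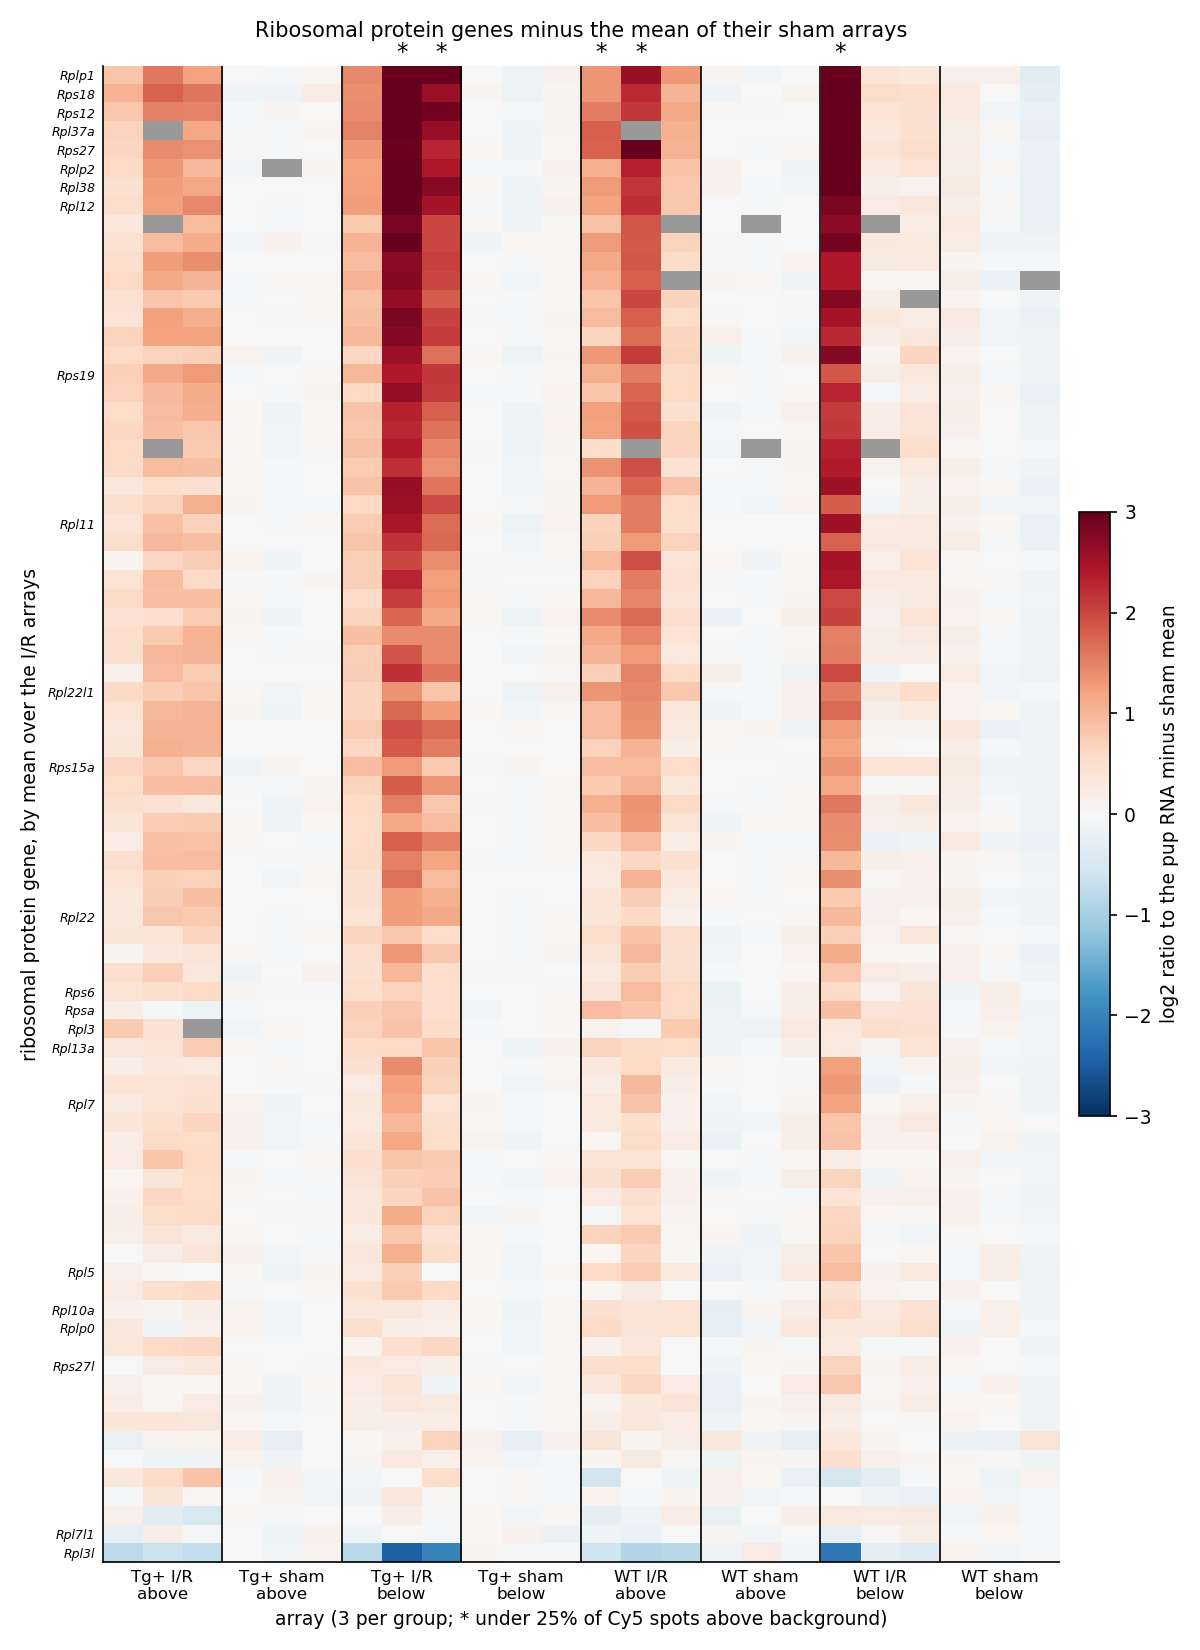
Log2 ratio of each of the 80 ribosomal protein genes (rows, with the main genes of the text labelled) minus the mean of the 3 sham arrays of the same genotype and piece, for the 24 arrays (columns), on the loess scale; colours stop at -3 and 3, grey cells are spots left out by a flag, and asterisks mark the 5 arrays with under 25% of Cy5 spots above background. Red fills most I/R columns and is deepest on 3 of the marked arrays, while Rpl3l at the bottom is blue on all 12 I/R arrays; under median centring the medians over the 80 genes turn negative in all 4 comparisons.

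The question of which ribosomal protein transcripts differed after I/R was put to each genotype and piece in a limma fit over all 11452 features. In Tg+ pieces below, 66 of 80 genes rose and 1 fell at an adjusted p under 0.05, where 15.3% of all features rose and 17.1% fell. In Tg+ pieces above 17 rose (6.92% of all features), in wild-type pieces above 16 rose (5.96%) and in wild-type pieces below 4 rose (2.14%), and none fell in these 3, where 8.42%, 7.29% and 3.45% of all features fell. Counting both directions, the test called 15.3%, 32.4%, 13.3% and 5.59% of all features in Tg+ above, Tg+ below, wild type above and wild type below. At an unadjusted p under 0.05 the members counted 35, 70, 55 and 45 of 80 in that order, and all features 3640, 5280, 3564 and 2372 of 11452. With slide as a block in the fit, 1, 2, 2 and 0 members passed, 1 of the 2 in wild type above being lower, and 363, 244, 259 and 25 of all features. The members' median changes in that fit were 0.47, 1.15, 0.80 and 0.42.

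On the loess scale the median change of the 80 genes was 0.62, 1.01, 0.69 and 0.50 in that same order, where the median of all features lay between -0.0032 and 0.0031, but under median centring of each array the members' medians were -0.33, -1.24, -0.88 and -0.78. Median centring also moved the median of all features, to -0.35, -0.51, -0.44 and -0.26, and relative to it the members lay at 0.025, -0.72, -0.44 and -0.52. It left 0, 1, 0 and 0 of the 80 genes called, the 1 being Rpl3l, and 9, 0, 2 and 0 of them above 0. Agilent's own log ratio gave medians of 0.32, 0.57, 0.29 and 0.17 with all features at -0.076, -0.24, -0.17 and -0.21, and the Cy5 channel alone gave 0.30, 0.41, 0.23 and 0.13 with all features at -0.027, -0.069, -0.049 and -0.059. The direction of the family as a whole therefore turned under median centring and held under loess, Agilent's log ratio and Cy5 alone. Among all features called, 792 of 1756, 1751 of 3711, 683 of 1518 and 245 of 640 were higher after I/R under loess, but 17 of 565, 20 of 3475, 3 of 282 and 4 of 21 under median centring. Agilent's log ratio had 398 of 732, 1386 of 3664, 466 of 1086 and 168 of 327 higher.

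Without the 5 weak arrays, 78 members could be fitted, and loess gave medians of 0.61, 0.60, 0.41 and 0.20, against -0.33, -0.12, 0.27 and 0.39 under median centring. The calls without those arrays were 64 higher and 1 lower in Tg+ above, and 5 and 0 in wild type below. All features were called at 41.7% in Tg+ above and 11.8% in wild type below. Tg+ above lost no array of its own, and its count moved through the estimate of spread, which all groups of the fit share. Tg+ below and wild type above kept 1 I/R array each, which shows no spread of its own, so only the sizes of their changes are given. Wild type below kept 2.

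**Figure D3:**
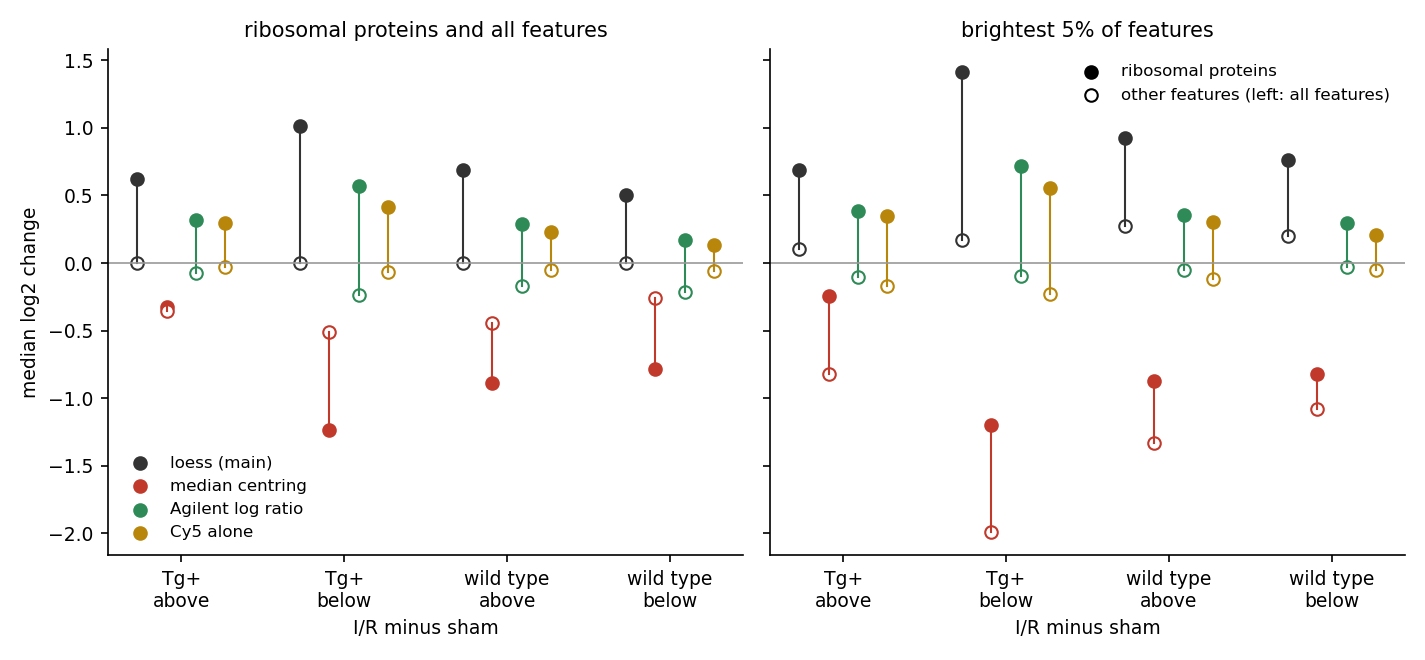
Median log2 change, I/R minus sham, under 4 ways of processing the same arrays, for the 80 ribosomal protein genes (filled) and all features (open, left), and for the 57 ribosomal protein genes and 516 other features in the brightest 5% (right). In the left panel the ribosomal protein medians are above 0 under loess, Agilent's log ratio and Cy5 alone and below 0 under median centring; in the right panel they lie above the other bright features under all 4.

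Groups of 3 arrays that did not overlap were common as well. I/R arrays all lay above sham arrays for 64 members in Tg+ above (25% of all features), 71 in Tg+ below (27.3%), 60 in wild type above (16.7%) and 39 in wild type below (9.39%), on the loess scale that median centring turns. In each of the 4 comparisons 1 member, Rpl3l, lay wholly below its sham arrays, as did 23.6%, 26.3%, 17.3% and 13.5% of all features. Changes were positive in all 4 comparisons for 72 members and in none for Rpl3l and Rpl7l1. Comparisons of the same genotype share hearts between the pieces, so the 4 are not independent of each other.

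Brighter members changed more on the loess scale, with Agilent's log ratio and with Cy5 alone, and under median centring this varied between comparisons. Ribosomal protein probes sat at a median of the 97.7th percentile of heart signal among all features. Over the 80 members the loess change correlated with log2 mean Cy5 signal at r = 0.68, 0.75, 0.72 and 0.72 in Tg+ above, Tg+ below, wild type above and wild type below, a description over genes of the same arrays, and at 0.40, 0.04, 0.07 and -0.36 under median centring. Agilent's log ratio gave r = 0.31, 0.53, 0.41 and 0.68, and Cy5 alone 0.36, 0.48, 0.34 and 0.49. The 20 brightest members had median changes of 0.86, 1.83, 1.31 and 1.08, and the 20 dimmest 0.23, 0.35, 0.27 and 0.24, on that scale; under median centring the 20 brightest were at -0.16, -1.11, -0.65 and -0.72, and the 20 dimmest at -0.48, -1.29, -0.98 and -0.70. Over all features the same correlation was 0.04, 0.02, 0.11 and 0.11 after loess, and -0.46, -0.82, -0.73 and -0.72 under median centring, which leaves any trend with brightness in place.

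The brightest 5% of features held 57 members and 516 other genes. After loess the members' median was 0.69, 1.41, 0.93 and 0.76, against 0.10, 0.17, 0.28 and 0.20 for the other bright features. Under median centring both lay below 0, with members at -0.24, -1.20, -0.87 and -0.82 and the others at -0.82, -1.99, -1.33 and -1.08. Agilent's log ratio gave the members 0.39, 0.72, 0.35 and 0.29, against -0.10, -0.094, -0.054 and -0.027 for the others, and Cy5 alone gave 0.35, 0.55, 0.30 and 0.21, against -0.17, -0.23, -0.12 and -0.05. Members therefore stood above the other features of the brightest 5% in all 16 of these settings and comparisons, as a description with no test, and brightness within that class was not matched.

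**Figure D4:**
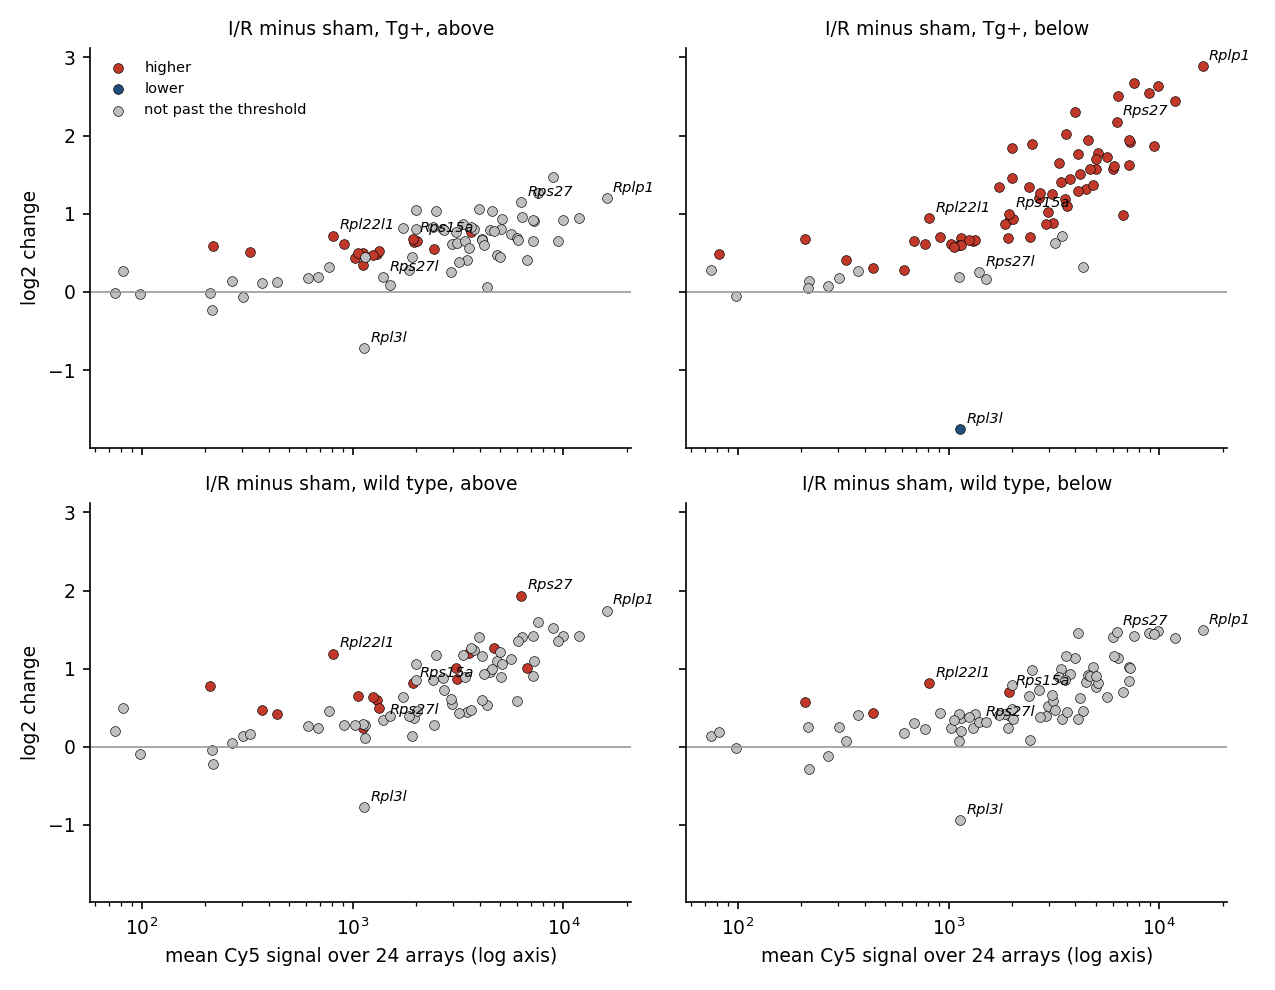
Log2 change, I/R minus sham (loess scale), of each of the 80 ribosomal protein genes against its mean Cy5 signal over 24 arrays (log axis), with genes past the adjusted p threshold of 0.05 in red (higher) or blue (lower). Changes grow with brightness in all 4 panels (r = 0.68 to 0.75) and Rpl3l lies apart below 0; under median centring the median change of the 80 genes is negative in every panel.

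Slides gave 4 comparisons within 1 slide, each of 1 I/R and 1 sham array of the same genotype and piece. The median loess difference was 0.67 in Tg+ above (70 of 77 genes higher), 1.41 in Tg+ below (79 of 80), 0.71 in wild type above (74 of 80) and 0.35 in wild type below (73 of 78). Under median centring the same pairs gave -0.38, -2.19, -0.69 and 0.39. The I/R array was one of the weak ones in Tg+ below and in wild type above. Rpl3l differed by -0.74, -2.42, -0.43 and -0.35 in these pairs on the loess scale and was negative under median centring as well.

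Rpl22l1 and Rps15a passed the test in all 4 I/R comparisons. Of 20 alternatives run, Rpl22l1 kept its call in 7 in Tg+ above and in 8 in wild type below. Rps15a kept its call in 11 and 10 of them. These are the comparisons in which no alternative left a group with 1 I/R array. Rpl22l1 encodes a paralog of the large-subunit protein RPL22, and Rps15a a protein of the small subunit. Rpl22l1 had log2 ratios of -0.91, -0.77 and -0.66 in Tg+ I/R pieces above, against -1.45, -1.59 and -1.47 in Tg+ sham pieces above. Below, it had -0.76, -0.063 and -0.58 in Tg+ I/R, against -1.42, -1.56 and -1.24 in Tg+ sham. In wild-type pieces above it had -0.27, -0.16 and -0.79 after I/R, against -1.67, -1.65 and -1.48 after sham, and below -0.11, -1.31 and -1.12 after I/R, against -1.54, -1.73 and -1.70 after sham. I/R and sham arrays did not overlap in any of the 4, and the changes were 0.72 ± 0.23 (adjusted p = 0.0405), 0.94 ± 0.23 (adjusted p = 0.0059), 1.19 ± 0.23 (adjusted p = 0.00279) and 0.81 ± 0.23 (adjusted p = 0.0452), given as log2 change ± SE. Under median centring they were -0.12 in Tg+ above, -0.19 in wild type above and -0.29 in wild type below, and in Tg+ below none of the 80 members was above 0. With the weak arrays left out, its loess changes were 0.65, 0.81 and 0.44 in Tg+ below, wild type above and wild type below. The last passed the threshold, and the others rest on 1 I/R array each.

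Rps15a had log2 ratios of -0.16, 0.039 and -0.16 in Tg+ I/R pieces above, against -0.88, -0.68 and -0.77 in Tg+ sham pieces above. In Tg+ pieces below it had 0.33, 0.68 and 0.19 after I/R, against -0.65, -0.53 and -0.62 after sham. Wild-type pieces above had 0.41, 0.43 and 0.041 after I/R, against -0.49, -0.50 and -0.55 after sham, and wild-type pieces below 0.74, -0.19 and -0.19 after I/R, against -0.32, -0.73 and -0.71 after sham. No I/R array overlapped its sham group, and the changes were 0.68 ± 0.19 (adjusted p = 0.0215), 1.00 ± 0.19 (adjusted p = 0.00105), 0.81 ± 0.19 (adjusted p = 0.00902) and 0.70 ± 0.19 (adjusted p = 0.0354). Rps15a reversed under median centring too, to -0.18 in Tg+ above, -0.73 in wild type above and -0.51 in wild type below. In the fit without the weak arrays Rps15a had loess changes of 0.94, 0.56 and 0.40 in Tg+ below, wild type above and wild type below. The last passed the threshold, and the others rest on 1 I/R array each. Its probe has a frame without a stop codon and carries no polyadenylation signal.
Rps15a probe: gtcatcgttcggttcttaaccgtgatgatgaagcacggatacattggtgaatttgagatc

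Of the other members, 6 passed upward in 3 comparisons (among them Rpl10a, Rpl13a, Rpl28, Rps6 and Rpsa), 16 in 2 and 45 in 1, 10 passed in none, and Rpl3l passed downward in 1. These 6 had moderate changes and small errors. Rps6, whose protein is the classic substrate of the S6 kinases downstream of mTOR, had -0.92, -0.86 and -0.73 in Tg+ I/R pieces above, against -1.25, -1.37 and -1.38 in Tg+ sham. Below, Rps6 had -0.83, -0.66 and -0.84 in Tg+ I/R, against -1.35, -1.37 and -1.32 in Tg+ sham. Its changes were 0.50 ± 0.13 (adjusted p = 0.0175), 0.57 ± 0.13 (adjusted p = 0.0041), 0.65 ± 0.13 (adjusted p = 0.00402) and 0.34 ± 0.13 (adjusted p = 0.135), the last of which did not pass. Rpl13a, a large-subunit protein also known from a complex that silences inflammatory mRNAs, changed by 0.49 ± 0.12, 0.66 ± 0.12 and 0.59 ± 0.12 with adjusted p of 0.0106, 0.000785 and 0.00357, and had 0.25 ± 0.12 (adjusted p = 0.244) in wild type below. Without the weak arrays both genes still passed in Tg+ above, while Tg+ below and wild type above were left with 1 I/R array each. All of these values are on the loess scale.

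The largest changes were those of bright members in Tg+ pieces below. The acidic stalk proteins P1 and P2, which recruit translation factors to the large subunit, are encoded by Rplp1 and Rplp2. Rplp1 had 0.49, 3.32 and 2.04 in Tg+ I/R pieces below, against -0.96, -1.06 and -0.81 in Tg+ sham pieces below, a change of 2.89 ± 0.69 (adjusted p = 0.00491). The weak arrays, replicates 2 and 3, held the 2 high values, and without the weak arrays Rplp1 changed by 1.43 in Tg+ below, read from 1 I/R array. Elsewhere its changes were 1.20 ± 0.69 (adjusted p = 0.237) in Tg+ above, 1.74 ± 0.69 (adjusted p = 0.0939) in wild type above and 1.49 ± 0.69 (adjusted p = 0.224) in wild type below, none past the threshold, and under median centring it was at -0.41 in Tg+ below. Rplp2 had 0.35, 2.82 and 1.57 in Tg+ I/R pieces below, against -0.92, -0.92 and -0.74 in Tg+ sham, a change of 2.44 ± 0.65 (adjusted p = 0.00943) and of -0.70 under median centring. Rplp2 changed by 1.22 there without the weak arrays, from the same 1 I/R array.

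Rplp0 encodes P0, the base of the stalk. Its probe under the present symbol changed by 0.47 ± 0.14 (adjusted p = 0.0295) in wild type above, and by 0.11 ± 0.14 (adjusted p = 0.595), 0.27 ± 0.14 (adjusted p = 0.122) and 0.40 ± 0.14 (adjusted p = 0.0904) in Tg+ above, Tg+ below and wild type below. The probe listed under Arbp, an older name of the same gene and outside the symbol rule, had 0.76, 2.29 (adjusted p = 0.00473), 1.74 and 1.51 in Tg+ above, Tg+ below, wild type above and wild type below. In the fit without the weak arrays the Rplp0 probe had 0.41 in wild type above, from 1 I/R array that cannot show whether the call holds. Changes read from the 2 probes of this gene thus differed most in Tg+ below. 1100001I22Rik, an older name of Rpl34, had 0.74, 1.24 (adjusted p = 0.0261), 1.07 and 0.85. Of the members themselves, 27 genes had 35 further probes above background, and 31, 30, 33 and 32 of those had the sign of the probe used, in Tg+ above, Tg+ below, wild type above and wild type below. Sizes differed more, with median absolute gaps of 0.23, 0.53, 0.22 and 0.19 on the log2 scale. In Tg+ below further probes had 0.28 for Rps19, 1.47 for Rps18 and -0.042 for Rps3, against 1.84, 2.55 and 1.57 at the probes used. In wild type above Rps3 had 0.25 at its further probe, against 1.26 at the probe used.

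Among the 8 largest increases in Tg+ pieces below were also 3 small-subunit genes. Rps12 had -0.011, 2.31 and 1.46 in Tg+ I/R, against -1.44, -1.50 and -1.35 in Tg+ sham, and changed by 2.68 ± 0.58 (adjusted p = 0.00265). Rps18 had 0.14, 2.41 and 1.35 in Tg+ I/R, against -1.17, -1.40 and -1.17 in Tg+ sham, and changed by 2.55 ± 0.57 (adjusted p = 0.00338). Both had their highest values on the weak replicates 2 and 3, while replicate 1 also lay above all sham arrays. Replicate 1 alone, in the fit without the weak arrays, gave a change of 1.42 for Rps12 and of 1.39 for Rps18. Rps27, a zinc-finger protein of the small subunit, changed by 2.18 ± 0.59 (adjusted p = 0.0106) there and by 1.93 ± 0.59 (adjusted p = 0.0373) in wild type above, with 1.15 in Tg+ above and 1.47 in wild type below not past the threshold. The other 3 were the large-subunit genes Rpl37a at 2.64 ± 0.65 (adjusted p = 0.00658), Rpl38 at 2.51 ± 0.60 (adjusted p = 0.00516) and Rpl12 at 2.31 ± 0.52 (adjusted p = 0.00375). Rpl38 takes part in the translation of Hox mRNAs in mouse embryos. Without the weak arrays Rps27 changed by 1.31 in Tg+ below and 1.05 in wild type above, from 1 I/R array each. In that fit Tg+ below, again read from replicate 1 alone, had Rpl37a at 1.48, Rpl38 at 1.23 and Rpl12 at 1.25. Under median centring these 6 were at -0.28 (Rps12), -0.48 (Rps18), -0.61 (Rps27), -0.48 (Rpl37a), -0.36 (Rpl38) and -0.48 (Rpl12).

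The 3 genes with the widest spread among I/R arrays were Rpl37a, Rplp1 and Rplp2, with within-group SDs of 1.32, 1.29 and 1.18, against 0.12, 0.16 and 0.14 on sham arrays. Over all 80 genes the median within-group SD was 0.50 on I/R arrays and 0.11 on sham arrays, where all features had 0.19 and 0.098. The fit gives each gene 1 spread for both surgeries, which lies between these.

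In Tg+ pieces above, the largest increases past the threshold included Rpl22l1, Rps15a, Rpl36a at 0.65 ± 0.19 (adjusted p = 0.0311), Rpl22 at 0.64 ± 0.21 (adjusted p = 0.044), Rpl3 at 0.61 ± 0.18 (adjusted p = 0.0324) and Rpl21 at 0.59 ± 0.17 (adjusted p = 0.0292). Rpl3 lacked 1 of its 3 I/R arrays there because of a spot flag. A further Rpl22 probe had -0.67 and a further Rpl21 probe -0.080, both opposite in sign to the probe used. Under median centring these were below 0 as well, at -0.25 for Rpl36a, -0.29 for Rpl22, -0.024 for Rpl3 and -0.097 for Rpl21. In wild-type pieces above, Rps27, Rps3 at 1.26 ± 0.39 (adjusted p = 0.0376), Rpl9 at 1.20 ± 0.36 (adjusted p = 0.0335), Rpl22l1, Rps25 at 1.01 ± 0.28 (adjusted p = 0.0212), Rps14 at 1.01 ± 0.27 (adjusted p = 0.0208), Rpl19 at 0.87 ± 0.26 (adjusted p = 0.0323) and Rps15a led. Under median centring Rps3 was at -0.54, Rpl9 at -0.58, Rps25 at -0.74, Rps14 at -0.89 and Rpl19 at -0.88. Of the 3 wild-type I/R arrays above, 2 were weak. In the fit without them, which leaves 1 I/R array, Rps25 was at 0.41 and Rpl19 at 0.39, well under their changes in the full fit. Rps3 was then at 0.66, Rpl9 at 0.51 and Rps14 at 0.60, also smaller, and 1 array cannot show whether any of these calls holds.

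In wild-type pieces below, the 4 genes past the threshold were Rpl22l1, Rps15a, Rpsa and Rpl10a. Rpsa, a small-subunit protein that also serves as a laminin receptor precursor, had -0.78, -1.29 and -1.24 in wild-type I/R pieces below, against -1.73, -1.53 and -1.79 in wild-type sham, and changed by 0.58 ± 0.13 (adjusted p = 0.0151). All 3 I/R arrays lay above the sham arrays, and the 2 arrays with sham-like Cy5 share were among them. Rpl10a had -0.76, -1.06 and -0.90 in wild-type I/R, against -1.38, -1.18 and -1.45 in wild-type sham, and changed by 0.43 ± 0.11 (adjusted p = 0.0264). Under median centring Rpsa was at -0.12 and Rpl10a at -0.50 in this comparison. Without the weak arrays Rpsa was at 0.42 (adjusted p = 0.0188), and Rpl10a at 0.35 (adjusted p = 0.0702) no longer passed.

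RPL5 and RPL11 bind MDM2 with the 5S rRNA when ribosome assembly is disturbed, and RPS19 is the protein most often mutated in Diamond-Blackfan anaemia. Rpl11 had 0.24, 1.92 and 1.14 in Tg+ I/R pieces below, against -0.48, -0.67 and -0.42 in Tg+ sham, and changed by 1.62 ± 0.45 (adjusted p = 0.0117). Its other changes, 0.65, 0.91 and 1.02 in Tg+ above, wild type above and wild type below, did not pass. Without the weak arrays Rpl11 was at 0.77 and Rps19 at 1.00 in Tg+ below, from 1 I/R array. Rpl5 had 0.067, 0.32, 0.54 and 0.46 in Tg+ above, Tg+ below, wild type above and wild type below with adjusted p of 0.822, 0.188, 0.0641 and 0.174. Rps19 passed in Tg+ below at 1.84 ± 0.36 (adjusted p = 0.0013) and had 1.05, 1.07 and 0.79 in Tg+ above, wild type above and wild type below with adjusted p of 0.053, 0.0543 and 0.216. These are loess values.

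Small-subunit genes had somewhat larger medians than large-subunit genes, at 0.66 against 0.60 in Tg+ above, 1.30 against 0.87 in Tg+ below, 0.97 against 0.54 in wild type above and 0.70 against 0.43 in wild type below, on the loess scale that median centring turns. The counts that rose were 7 of 32 small and 10 of 48 large in Tg+ above, 29 and 37 in Tg+ below, 9 and 7 in wild type above, and 2 and 2 in wild type below. The difference between subunits was not tested. Across the 24 arrays the members also varied together: after group means were removed, the median correlation over the 3160 pairs of members was 0.81, and 0.85 on I/R and 0.53 on sham arrays, where pairs of all features had medians of 0, -0.0008 and 0.008. The genes most like the median of the 80 included Rpl12 (r = 0.992) and Rpl27 (0.991) over 24 arrays, and the least like were Rpl3l (-0.855), Rpl3 (-0.33) and Rplp0 (-0.323). The arrays share their slides and signal levels, so these are descriptions.

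Rpl3l stood against the rest, below its sham arrays on all 12 I/R arrays. RPL3L replaces RPL3 in ribosomes of heart and skeletal muscle. Rpl3l had log2 ratios of 2.26, 0.63 and 1.06 in Tg+ I/R pieces below, against 3.16, 3.02 and 3.05 in Tg+ sham pieces below. In Tg+ pieces above it had 2.34, 2.49 and 2.40 after I/R, against 3.12, 3.05 and 3.23 after sham. In wild-type pieces above it had 2.52, 2.22 and 2.28 after I/R, against 2.95, 3.36 and 3.03 after sham, and below 1.01, 2.89 and 2.77 after I/R, against 3.28, 3.09 and 3.13 after sham. The groups did not overlap in any genotype or piece, and the lowest 3 values, 0.63, 1.01 and 1.06, were on weak arrays.

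Rpl3l fell by 1.76 in Tg+ pieces below (SE 0.37, adjusted p = 0.00232), the only ribosomal protein decrease past the threshold. The other changes were -0.72 ± 0.37 (adjusted p = 0.19) in Tg+ above, -0.77 ± 0.37 (adjusted p = 0.164) in wild type above and -0.94 ± 0.37 (adjusted p = 0.148) in wild type below. Without the 5 weak arrays Rpl3l changed by -0.72 in Tg+ above (adjusted p = 3.34e-05) and -0.33 in wild type below (adjusted p = 0.0532). In Tg+ below and wild type above, left with 1 I/R array each, it changed by -0.82 and -0.83. It was negative on all 4 scales, at -1.51, -2.93, -1.89 and -1.47 under median centring, -0.58, -1.45, -0.46 and -0.54 with Agilent's log ratio and -0.77, -1.62, -0.81 and -0.79 with Cy5 alone. In bulk tissue, fewer cells of a type and less RNA per cell cannot be told apart.

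Rpl3, the general form, rose in Tg+ above and Tg+ below, by 0.61 ± 0.18 (adjusted p = 0.0324) and 0.70 ± 0.17 (adjusted p = 0.00508), and had 0.28 ± 0.17 (adjusted p = 0.245) and 0.44 ± 0.17 (adjusted p = 0.132) in wild type above and below, on the loess scale. The balance of both forms within an array is free of any constant added to that array, though a correction by brightness can move it. The log2 ratio of Rpl3l minus that of Rpl3 was 3.73 and 4.24 on 2 Tg+ I/R arrays above, against 5.38, 5.17 and 5.40 on Tg+ sham arrays. Below, it was 3.78, 1.99 and 2.73 in Tg+ I/R, against 5.42, 5.23 and 5.22 in Tg+ sham. In wild type it was 4.57, 4.42 and 3.66 after I/R above, against 5.25, 5.67 and 4.89 after sham above, and 2.87, 4.54 and 4.50 after I/R below, against 5.49, 5.17 and 5.39 after sham below. The balance was lower on every I/R array than on any sham array, weak arrays or not. The changes were -1.33, -2.46, -1.05 and -1.38 under loess, -1.34, -1.58, -0.72 and -0.82 under median centring, -1.07, -1.79, -0.43 and -0.52 with Agilent's log ratio and -1.36, -2.08, -0.79 and -0.94 with Cy5 alone. Groups overlapped in wild type above under the last 3 and in wild type below with Agilent's log ratio, and did not in the other cases.

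The probes of this pair show how far both transcripts can be told apart. Both have a frame without a stop codon, and the longest run of bases that they share is 5.
Rpl3l probe: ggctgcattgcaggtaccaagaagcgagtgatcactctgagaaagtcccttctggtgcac
Rpl3 probe: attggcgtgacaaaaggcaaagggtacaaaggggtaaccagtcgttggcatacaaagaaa
The probes of Rps27l and Rps27 and of Rpl22l1 and Rpl22 share at most 6 bases in a row within each pair. Those of Rpl22l1 and Rpl22 each have a frame without a stop codon, and those of Rps27l and Rps27 have none. Read from its first base, the Rpl22l1 probe holds the stop codon taa near its end. A frame without a stop codon does not by itself place a probe in coding sequence. Cross-hybridisation of other copies is less certain: the RefSeq table lists numbered pseudogenes for 62 of the 80 genes, 317 in all, and probes of these members may share sequence with them.

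Another paralog pair shifted in the same way on every scale. RPS27L, a near relative of RPS27, is a p53 target. Rps27l itself had 0.19, 0.25, 0.35 and 0.32 in Tg+ above, Tg+ below, wild type above and wild type below, none past the threshold, while Rps27 rose in 2 of them on the loess scale. Rps27l minus Rps27 was 0.12, -0.40 and -0.29 on Tg+ I/R arrays above, against 0.80, 0.80 and 0.74 on Tg+ sham arrays above. Below, it was -0.18, -1.88 and -1.29 in Tg+ I/R, against 0.73, 0.89 and 0.81 in Tg+ sham. Wild type had -0.39, -1.63 and -0.17 after I/R above, against 0.76, 0.94 and 0.87 after sham above, and -2.06, 0.48 and 0.44 after I/R below, against 0.62, 0.84 and 0.88 after sham below. I/R and sham arrays did not overlap in any of the 4 comparisons under any of the 4 scales, with changes of -0.97, -1.93, -1.59 and -1.16 under loess and -0.88, -1.10, -1.19 and -0.56 under median centring. The largest shifts were on weak arrays. The mean Cy5 signal was 6284 at the Rps27 probe and 1400 at the Rps27l probe, and the part of brightness in this balance was not tested.

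**Figure D5:**
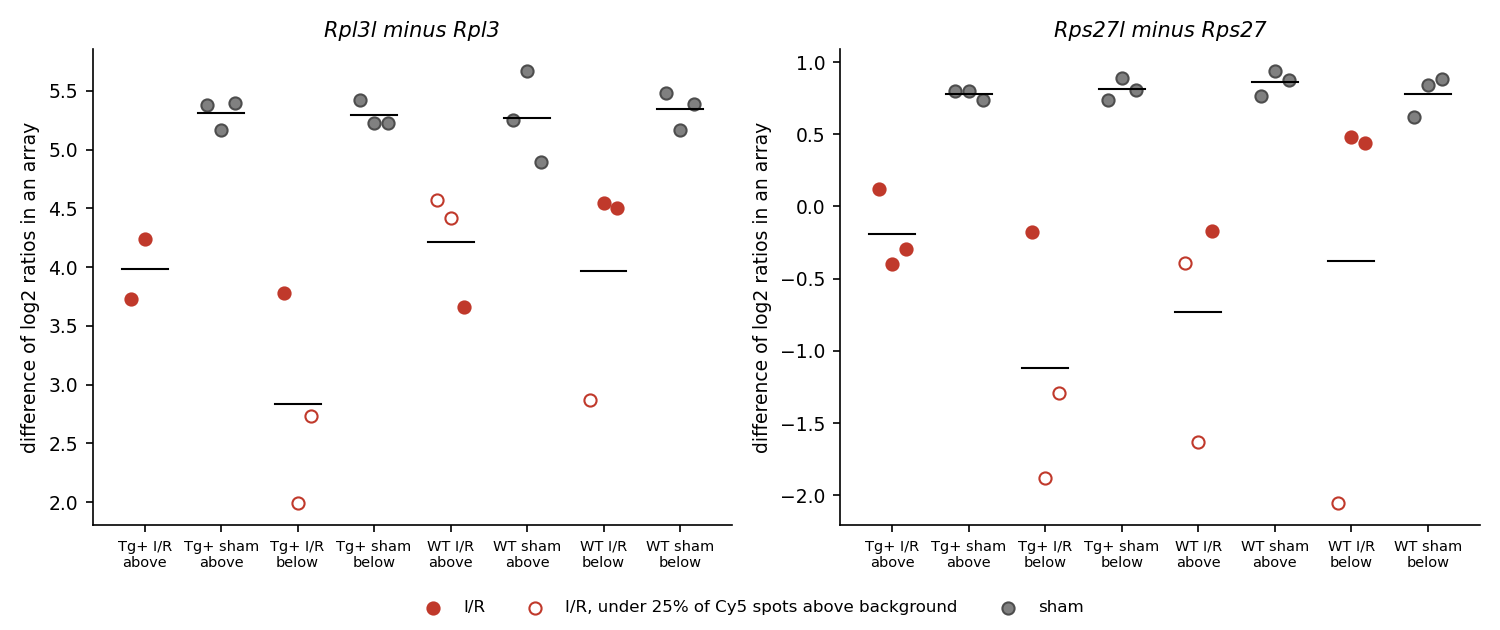
Difference of the log2 ratios of 2 paralogs within each array, Rpl3l minus Rpl3 (left) and Rps27l minus Rps27 (right), 1 point per array with bars at group means; open points are I/R arrays with under 25% of Cy5 spots above background, and 1 Tg+ I/R array above lacks a Rpl3 value. All I/R points lie below all sham points in both panels, from 1.99 to 4.57 against 4.89 to 5.67 on the left and from -2.06 to 0.48 against 0.62 to 0.94 on the right.

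The other measured pairs did not share this pattern. Rpl22l1 minus Rpl22 changed by 0.078, 0.0096, 0.83 and 0.42 in Tg+ above, Tg+ below, wild type above and wild type below, without overlap of I/R and sham in both wild-type comparisons (with Cy5 alone, wild type below overlapped). Read from the probe used, Rpl22 rose in the 2 Tg+ comparisons, as Rpl22l1 did. Without the weak arrays Rpl22 had 0.42 in Tg+ below, against 0.93 with them, from 1 I/R array that cannot show whether the call holds. In wild type Rpl22 had 0.36 ± 0.21 (adjusted p = 0.242) above and 0.39 ± 0.21 (adjusted p = 0.301) below. The other Rpl22 probe above background had the opposite sign throughout, at -0.67, -0.52, -0.36 and -0.16 in Tg+ above, Tg+ below, wild type above and wild type below, so the direction of Rpl22 and of this balance rests on the probe. Under median centring the Rpl22l1 balance changed by 0.17, 0.35, 1.07 and 0.66. Rpl7l1, a paralog of Rpl7, had -0.03, -0.049, -0.098 and -0.018, the smallest changes of the paralogs, and Rpl7 had 0.38, 0.63, 0.43 and 0.47, with none past the threshold for either. Rpl7l1 minus Rpl7 changed by -0.41, -0.68, -0.53 and -0.49 under loess and by 0.15, 1.36, 0.79 and 0.80 under median centring, so its sign turned. Rpl10l, Rpl39l and Rps4l were not analysed here.

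Genotype was compared within each surgery and piece. No slide held Tg+ and wild-type arrays of the same surgery and piece, so genotype and slide cannot be told apart within these comparisons. After I/R above, 1 of 80 genes, Rpsa, was lower in Tg+ than in wild type and none higher, where 0.402% of all features were lower and 0.253% higher (0.655% in all). After I/R below, 1 was higher and none lower, where 1.21% of all features were higher and 1.71% lower (2.93% in all). Groups did not overlap for 18 members lower (7.89% of all features) and 1 higher (7.07%) above, and for 1 lower (5.87%) and 1 higher (5.19%) below. Rpsa had -1.35, -1.56 and -1.67 in Tg+ I/R pieces above, against -0.70, -0.80 and -1.05 in wild-type I/R pieces above, a difference of -0.68 ± 0.13 (adjusted p = 0.0282), with no overlap. The corresponding sham arrays had -1.55, -1.51 and -1.50 in Tg+ and -1.78, -1.67 and -1.44 in wild type. With the weak arrays left out, Rpsa differed by -0.48, a smaller difference. Only 1 wild-type I/R array above is then left, which cannot show whether the call holds. Under median centring Rpsa differed by 0.036 between the I/R groups, and the interaction of genotype and surgery was -0.79 ± 0.19 (adjusted p = 0.259).

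The median of the 80 genes was -0.31 for Tg+ over wild type after I/R above and 0.40 after I/R below on the loess scale, against 0.82 and -0.77 under median centring. The 2 I/R groups above held no and 2 weak arrays, and those below held 2 and 1, in Tg+ and wild type; without the weak arrays the medians were -0.0039 and 0.36. In sham hearts no member was called above (0.0349% of all features) or below (0.0262%). There, 1 and 0 members had an unadjusted p under 0.05, as did 231 and 164 of all 11452 features. The medians were -0.18 above and -0.060 below, and 48 of 80 members had all Tg+ sham arrays under all wild-type sham arrays above (10.7% of all features) and none over them (6.09%). These Tg+ and wild-type sham arrays shared no slide, so the 48 cannot be assigned to genotype rather than slide. In sham pieces below, 3 were wholly lower (7.44%) and none wholly higher (6.37%), and 0.0175% of all features were called higher and 0.00873% lower. The sham median above was -0.027 in a fit that took slide as a block and 0.25 under median centring. Among the smallest p values were those of Rpl37 at -0.22 ± 0.11 and Rps27l at -0.24 ± 0.14 above, and of Rpl13a at -0.20 ± 0.12, Rpl22l1 at 0.25 ± 0.23 and Rps15 at -0.13 ± 0.12 below, all with an adjusted p of 1.

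Pieces below were compared with pieces above of the same hearts, and no member passed in Tg+ I/R (0.48% of all features), Tg+ sham (0%), wild-type I/R (0.0175%) or wild-type sham (0%). A fit with the heart as a block also called none. At an unadjusted p under 0.05 there were 48, 0, 1 and 0 members, and 2591, 107, 748 and 15 of all 11452 features. In Tg+ I/R hearts the median of below over above was 0.60, 26 members lay wholly higher below (12.2% of all features) and 2 wholly lower (10.9%), but the 2 weak Tg+ arrays were both from below, and the median was 0.12 without them and -1.47 under median centring. The smallest p values there were Rpsa at 0.45 ± 0.13 (adjusted p = 0.103), Rpl30 at 0.74 ± 0.24 (adjusted p = 0.124) and Rps4x at 1.39 ± 0.47 (adjusted p = 0.128). In Tg+ sham hearts the median was 0.12, or -0.54 under median centring, with 38 members wholly higher below (11.2% of all features) and 2 wholly lower (7.2%). No slide held Tg+ sham arrays of both pieces, so piece and slide cannot be told apart in this comparison. With slide as a block its median was -0.083, with 57 members below 0 and 23 above. The medians were -0.13 in wild-type I/R and -0.014 in wild-type sham hearts on the loess scale, and 0.12 and 0.012 under median centring. Without the weak arrays the wild-type I/R median was -0.23. Rpl13a had the smallest p in wild-type I/R, at -0.28 ± 0.12 (adjusted p = 0.749), and Rpl21 in wild-type sham, at 0.18 ± 0.17 (adjusted p = 1).

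Interactions asked whether the I/R change differed between genotypes or pieces, and no member passed in any of the 4. Of all features 0.0175% passed in each genotype-by-surgery test and 0% in each piece-by-surgery test. At an unadjusted p under 0.05 there were 3 members for genotype by surgery above, 8 below, 1 for piece by surgery in Tg+ and 0 in wild type. In the same order 949, 1200, 716 and 207 of all 11452 features had such a p. As shares, the counts of the 80 members were no larger than these. The smallest p values for genotype by surgery belonged above to Rpsa, Rpl21 at 0.81 ± 0.25 (adjusted p = 0.353) and Rpl37 at 0.34 ± 0.16 (adjusted p = 0.59), and below to, among others, Rpl37 at 0.40 ± 0.16 (adjusted p = 0.419) and Rpl13a at 0.41 ± 0.17 (adjusted p = 0.432). A further Rpl21 probe had similar I/R changes in both genotypes above, at -0.080 in Tg+ and -0.14 in wild type. For piece by surgery in Tg+ it was Rpsa at 0.68 ± 0.19 (adjusted p = 0.645), and Rpl3l there had -1.04 ± 0.52 (adjusted p = 0.806). The counts of 66 in Tg+ below and 4 in wild type below thus stand beside a test of their difference that called none.

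Neighbouring gene lists gave a mixed picture, and their counts stand beside shares of all features of 6.92%, 15.3%, 5.96% and 2.14% that rose and 8.42%, 17.1%, 7.29% and 3.45% that fell in Tg+ above, Tg+ below, wild type above and wild type below. Ribosomal components outside the symbol rule had 4 tested genes, of which Fau, the precursor of the small-subunit protein eS30, and Gnb2l1, the scaffold RACK1, rose in Tg+ below by 2.18 (adjusted p = 0.00602) and 1.96 (adjusted p = 0.0111), and none passed in the other 3. Of 13 elongation and other TOP mRNA factors, 1 rose and 0 fell in Tg+ above, 5 and 2 in Tg+ below, 4 and 0 in wild type above and 1 and 0 in wild type below. The 1 that rose in Tg+ above and the 2 that fell in Tg+ below are near those shares. List medians were 0.18, 0.27, 0.18 and 0.081 under loess, and -0.69, -1.79, -0.98 and -0.75 under median centring. Btf3, the beta subunit of the nascent polypeptide-associated complex, had 0.50, 0.59, 0.81 and 0.70, of which the last 3 passed. Pabpc1, the poly(A)-binding protein, rose by 1.39 in Tg+ below (adjusted p = 0.0153), and Eif4a1, an initiation helicase, by 0.48 and 0.81 in Tg+ above and below (adjusted p = 0.0356 and 0.000824).

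The elongation factor isoforms moved apart in the same direction as the Rpl3 forms. Eef1a1, the general form of eEF1A, rose by 1.84 ± 0.40 in Tg+ below (adjusted p = 0.00269) and 1.46 ± 0.40 in wild type above (adjusted p = 0.0211), on the loess scale. Eef1a2, the form of adult heart and muscle, fell by 1.56 in Tg+ below (SE 0.37, adjusted p = 0.00526). Eef1a2 minus Eef1a1 was 3.17, 0.27 and 1.28 on Tg+ I/R arrays below, against 4.94, 5.20 and 4.78 on Tg+ sham arrays below. It changed by -2.10, -3.40, -2.48 and -1.36 in Tg+ above, Tg+ below, wild type above and wild type below, without overlap in the first 3. Under median centring it changed by -1.81, -1.42, -1.41 and 0.022.

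Ribosome biogenesis genes, which build the subunits in the nucleolus, had 24 tested members, of which 2 rose and 1 fell in Tg+ above, 5 and 2 in Tg+ below, 2 and 0 in wild type above and 3 and 0 in wild type below. The share of all features that rose was 6.92%, 15.3%, 5.96% and 2.14%, so the counts in Tg+ above, Tg+ below and wild type above say little about this list. Fbl, the rRNA methyltransferase fibrillarin, had 0.25, 0.92, 0.52 and 0.52 and Npm1, nucleophosmin, 0.24, 0.78, 0.67 and 0.74, of which the last 3 passed for each. The list's medians were 0.10, 0.18, 0.044 and 0.037 under loess and -0.45, -0.57, -0.53 and -0.22 under median centring. Of 13 regulators of TOP mRNA translation, 2 rose and 4 fell in Tg+ above, 3 and 4 in Tg+ below, 2 and 3 in wild type above and 2 and 0 in wild type below. Those that rose in all 4 were Ddit4, an inhibitor of mTORC1, by 2.10, 1.83, 1.26 and 1.05, and Eif4ebp1, the eIF4E-binding protein held off by mTORC1, by 0.93, 1.12, 0.96 and 1.03, with adjusted p of 0.0432 for Ddit4 and 4.01e-05 for Eif4ebp1 in wild type below. Tsc1, an upstream brake on mTORC1, fell by 0.40, 0.43 and 0.40 in Tg+ above, Tg+ below and wild type above (adjusted p = 0.0102, 0.00384 and 0.012). These are loess values, and under median centring all 13 regulators, Ddit4 and Eif4ebp1 included, were below 0 in Tg+ below and wild type above.

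Mitochondrial ribosomal proteins, which serve the organelle's own translation, had medians below 0 after I/R. Of 75 tested, 3 rose and 12 fell in Tg+ above, 5 and 41 in Tg+ below, 1 and 12 in wild type above, and 0 and 3 in wild type below, where 8.42%, 17.1%, 7.29% and 3.45% of all features fell. The 3 in wild type below are near that share. Their medians were -0.22, -0.40, -0.18 and -0.14 under loess and were negative on the other scales, at -0.85, -1.47, -1.12 and -0.76 under median centring, -0.21, -0.44, -0.13 and -0.10 with Agilent's log ratio and -0.19, -0.40, -0.12 and -0.11 with Cy5 alone. Mrpl19 changed by -0.56, -0.92, -0.77 and -0.50 with adjusted p of 0.00935, 0.000148, 0.0012 and 0.0332. Mrpl18 changed by -0.56, -0.91, -0.43 and -0.51 with adjusted p of 0.00517, 7.50e-05, 0.0226 and 0.0175. Both passed in all 4 and kept a negative sign on all 4 scales.

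Markers of cell types were counted after I/R as well. Beside them, 6.92%, 15.3%, 5.96% and 2.14% of all features rose in Tg+ above, Tg+ below, wild type above and wild type below. In the same order 8.42%, 17.1%, 7.29% and 3.45% fell. In lists this short a count of 1 says little beside those shares. Of 6 neutrophil markers on the array 4 were bright enough to test, and all 4 rose in Tg+ above and wild type below and 3 of 4 in Tg+ below and wild type above. A marker dim in sham hearts could pass the background filter through I/R groups alone, which favours markers that rise. How these 4 passed it is not given here. Their mean log2 ratio was 0.24 to 0.53 on Tg+ I/R arrays below, against -2.07 to -1.96 on Tg+ sham arrays below. It was -0.90 to 0.17 on Tg+ I/R arrays above, against -2.20 to -2.12 on Tg+ sham arrays above. In wild type it was -0.69 to 0.35 after I/R above, against -2.12 to -1.96 after sham, and -0.090 to 0.49 after I/R below, against -2.06 to -1.90 after sham. Of 9 tested macrophage markers (10 on the array) 4, 3, 4 and 1 rose in Tg+ above, Tg+ below, wild type above and wild type below, and of 7 fibroblast markers 1, 1, 0 and 0. Of 6 endothelial markers 0, 2, 3 and 2 fell, of 8 ventricular cardiomyocyte markers 1, 3, 1 and 0 fell, and of 4 atrial markers 2, 1, 1 and 0 rose. Both tested epicardial markers (of 4) rose in all but wild type below, and of 4 smooth muscle markers 1, 1, 1 and 0 rose and 1, 0, 1 and 0 fell. The 3 tested erythroid markers (of 4) and the 1 tested lymphocyte marker (of 7) did not pass, and the mean of the ventricular markers was 2.69 to 3.45 on Tg+ I/R arrays below, against 3.65 to 3.85 on Tg+ sham arrays below. The part of these cells in the ribosomal protein values was not tested.

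Probe position is a further measured difference between members. The probes of 13 members held the polyadenylation letters AATAAA or ATTAAA and had a median Cy5 signal of 6284, against 2031 for the 67 others. The 13 had median loess changes of 0.83, 2.03, 1.27 and 1.14 in Tg+ above, Tg+ below, wild type above and wild type below, against 0.61, 0.93, 0.60 and 0.44 for the others. Brightness and probe position cannot be told apart in this split, and no test was made.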

How the data were processed

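Heart RNA from 24 tissue pieces was read on 24 Agilent arrays against RNA pooled from pups. Per the labels, 50 ng of RNA was amplified and the heart always carried Cy5, so no array has its dyes swapped. A label protocol text names Cy3-CTP for heart RNA, against the label fields. With 3 arrays a group, precision is limited.

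Per the file headers, Feature Extraction 9.5.3.1 gave the deposited intensity of each spot in both channels, its local background, flags, and a log10 ratio of red over green after Agilent's own background subtraction and dye normalization. The intensity values are not normalized. The authors' series table holds log2 ratios of Cy5 over Cy3. The sources used here do not give its centring. Its columns had medians of -0.11 to 0.14 and correlated with the scanner ratios at 0.986 to 0.999.

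Background was corrected with normexp (offset 50) and ratios were loess-normalized within arrays in limma 3.58.1 under R 4.3.3, giving weight 0 to control spots and outlier flags and averaging duplicate spots. The offset understates changes of dim genes. Flags removed 15 of 1920 member values, in 7 members. Of 41174 probes, 15412 passed the background filter; the 80 members had 134 probes, 115 of them kept. No spot was saturated. Groups came from the labels. A single fit of 8 group means (lmFit and eBayes) had 16 residual degrees of freedom, and both pieces of a heart entered it as independent arrays. Adjusted p (Benjamini-Hochberg) covers 11452 features in each comparison, with a threshold of 0.05. The pieces of a heart are paired by the design text, yet their deviations from group means correlated at -0.73 to 0.54. Arrays of different hearts with the same number had a median correlation of -0.027. The arrays sat on 7 slides, over which the groups were not balanced, and correlations between arrays ran from 0.59 to 0.99.

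The members, gene lists and the rule for named genes were chosen with earlier results of these data known. By that rule each comparison gives up to 8 members past the threshold in each direction, or the 3 of smallest p; the paralogs, stalk and signalling members and the extremes of I/R spread are added, with a few members of each list that passed after I/R. Tsc1 and the probes under older names were named after their values were seen. The extremes of the sham ratio, which the rule also takes, are left out because the size of a ratio carries dye bias. A few members are not reported here by name. The fit was tested on simulated data. Alternatives were other scalings and filters, the slide, heart or number as a block, and arrays left out.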

Additional observations from a re-analysis of the deposited data

How the results depend on the processing

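Of the alternatives run, loess against median centring changed most. Under median centring the calls after I/R were 0, 1, 0 and 0 (Tg+ above, Tg+ below, wild type above, wild type below) and the medians -0.33, -1.24, -0.88 and -0.78. Among named members it reversed Rpl22l1 to -0.12, Rps15a -0.18, Rpl36a -0.25, Rpl22 -0.29, Rpl3 -0.024 and Rpl21 -0.097 in Tg+ above, the same without the weak arrays. In Tg+ below it reversed Rplp1 to -0.41, Rps12 -0.28, Rpl37a -0.48, Rps18 -0.48, Rpl38 -0.36, Rplp2 -0.70, Rpl12 -0.48 and Rps27 -0.61. In wild type above it reversed Rps3 to -0.54, Rpl9 -0.58, Rpl22l1 -0.19, Rps25 -0.74, Rps14 -0.89, Rpl19 -0.88 and Rps15a -0.73, and in wild type below Rpl22l1 to -0.29, Rps15a -0.51, Rpsa -0.12 and Rpl10a -0.50. For Tg+ over wild type it called 0 after I/R above and 0 below, with medians of 0.82 and -0.77 and Rpsa at 0.036; the sham medians were 0.25 above and -0.30 below. Its below over above medians were -1.47 (Tg+ I/R) and -0.54 (Tg+ sham), and the wild-type sham level was -0.35. Agilent's log ratio called 11 in Tg+ above (732 of all features), with medians of 0.32, 0.57 and 0.29 in Tg+ above, Tg+ below and wild type above. For Tg+ over wild type it called 0 after I/R above (13 of all features) and 7 below (1237). Its sham medians were -0.021 and -0.21, and below over above was 0.11 in Tg+ I/R and -0.21 in Tg+ sham. The series table gave 11, then 0.32, 0.57 and 0.29, then 0 and 7, -0.019 and -0.21, and 0.11 and -0.21 for the same results. Its 11, 0 and 7 calls stood beside 735, 13 and 1238 of all features. Cy5 alone gave medians of 0.30, 0.41 and 0.23, 42 calls in Tg+ below (3226 of all features) and Rpl10a at -0.0013 in wild type below. Its Tg+ over wild type calls were 0 after I/R above (18 of all features) and 21 below (1700), and the sham median above was -0.072. Its below over above fit called 2 in Tg+ I/R (110 of all features), with medians of 0.16 there and 8e-04 in Tg+ sham. Without the dim filter 9 members passed in Tg+ above (1298 of all features), 10 in wild type above (1151) and 2 in wild type below (419). For Tg+ over wild type after I/R below that fit called 0 (87 of all features), and the fit without background correction called 2 (443). The mean of all probes turned Rpl22 in Tg+ above to -0.014. Slide as a block left 1, 2, 2 and 0 I/R calls (363, 244, 259 and 25 of all features). It left 2 and 0 genotype calls after I/R above and below (67 and 0 of all features). Its sham genotype medians were -0.027 above and -0.25 below, and below over above was -0.083 in Tg+ sham and 0.15 in wild-type sham. The number as a replicate block left 0 for Tg+ over wild type after I/R below (153 of all features). It left 14, 64, 13 and 3 I/R calls (1555, 3401, 1301 and 497 of all features). The heart as a block changed no member call between pieces. Fits on the arrays of 1 comparison called 65 in Tg+ above (3707 of all features) and 25 in wild type above (805). They called 0 in wild type below, and 0 and 0 for genotype after I/R above and below, where 0 of all features were called. Without the 5 weak arrays 65 were called in Tg+ above (4767 of all features), and the medians were 0.60 in Tg+ below and 0.12 for below over above in Tg+ I/R. Loess calls that rest on a group left with 1 I/R array are not given. Under Agilent's log ratio and Cy5 alone, the Tg+ below counts that follow cannot show whether any call holds. They rest on the 1 I/R array that Tg+ below keeps without the weak arrays. Median centring without them gave medians of -0.33, -0.12 and 0.27 (Tg+ above, Tg+ below, wild type above) and 0 calls in wild type below. Agilent's log ratio without them called 37 (median 0.32) in Tg+ above, 34 (0.53) in Tg+ below and 16 in wild type below. Cy5 alone without them called 40 (0.30), 30 (0.33) and 10 in the same 3, with a wild type above median of 0.15 and Rpl19 there at -0.011. The combined settings without weak arrays were chosen after seeing the data. The cause of these shifts was not tested.

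Leaving out 1 array in turn moved the member medians to 0.56 to 0.72 in Tg+ above, 0.82 to 1.24 in Tg+ below, 0.57 to 0.88 in wild type above and 0.20 (without I/R below 1) to 0.68 in wild type below. Tg+ over wild type ran from -0.50 (without wild type 3) to -0.11 (without wild type 2) after I/R above. After I/R below it ran from 0.18 (without Tg+ 2; 0.21 and 0.24 without wild type 2 and 3) to 0.83 (without wild type 1), with 0.64 without Tg+ 1. Below over above ran from 0.37 (without below 2) to 0.79 in Tg+ I/R and from -0.61 (without below 1) to 0.069 in wild-type I/R, above 0 without above 2 (0.026), below 2 (0.069) or below 3 (0.016), and -0.27 without above 3. In sham hearts Tg+ over wild type ran from -0.19 to -0.15 above and -0.12 (without wild type 3) to -6e-04 (without wild type 1) below, and below over above from 0.10 to 0.15 in Tg+ and -0.065 (without below 1) to 0.052 (without below 3) in wild type. Counts ranged from 3 to 23 in Tg+ above, 35 to 68 in Tg+ below, 6 to 32 in wild type above and 0 to 8 in wild type below. The extremes came without Tg+ I/R above 3 (3, with 691 of all features called) and without Tg+ I/R below 2 (35, with 1892). In wild type they came without sham above 1 (6, with 903) or I/R above 3 (32, with 2181). For wild type below they came without sham below 3 (0, with 261), I/R below 1 (0, with 469) or I/R below 2 (8, with 718). Counts also moved by over 1.5 times without Tg+ sham above 1, 2 or 3 (6, 10, 6) or I/R above 2 (6), wild-type sham above 2 or 3 (7, 10) or I/R above 1 or 2 (9, 7), and wild-type sham below 1 or 2 (1, 2). In that order 723, 1413, 751, 874, 782, 932, 1014, 758, 282 and 270 of all features were called. Genotype after I/R called 0 to 4 above (0 without wild type 1 or 2 or Tg+ 2 or 3, and 4 without wild type 3, with 505 of all features). Below it called 0 to 63 (63 without wild type 1, with 5238 of all features, 22 without Tg+ 1, with 1908, and 0 without wild type 2 or 3 or Tg+ 2 or 3). Below over above called 0 to 40 in Tg+ I/R and 0 to 15 in wild-type I/R, the most without replicate 1 below, where 1499 and 1447 of all features were called. Genotype by surgery below called 0 to 39, the most without wild-type I/R below 1 (2044 of all features), and 2 without Tg+ I/R below 1 (365). Counts of all features thus moved together with those of the members. Over all alternatives, 228 counts stayed equal or within 1.5 times and 80 did not. The 228 include counts of 0 that stayed at 0. Of the named values, 819 stayed as they were, 207 lost their call, 4 gained one and 35 reversed. The 819 include values called in neither fit, so they are not a count of calls that held. The weak heart signal on 5 arrays, and 3 arrays a group, limit every I/R value.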
